A study of Mus musculus with 4 samples.

Results

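Folr2-positive Lyve1-negative macrophages are cells of the mouse peritoneal cavity that hold RNA for the folate receptor Folr2 and no detected RNA for the hyaluronan receptor Lyve1. They numbered 895 of 26811 cell barcodes: 661 in library 2, 126 in library 3 and 108 in library 4. A barcode counted as a member with at least 500 detected genes, at most 10% mitochondrial UMIs (unique molecular identifiers, here 1 per captured RNA molecule), at least 2 UMIs of Adgre1, which encodes F4/80, and at least 2 of Folr2. It also had 0 UMIs of Lyve1, Cd79a and Cd3d, Cd3e and Cd3g together, under 3 of Timd4, at most 1 of Cd209a, and under 5 of Mki67, Top2a, Birc5 and Ube2c together. Members were thus chosen by the counts of 13 genes, whose values are a description and which stay out of every count below. Members were set against the 2772, 3971 and 4600 cells of libraries 2, 3 and 4 with at least 2 Adgre1 UMIs and no Folr2 UMI, called Folr2-zero cells.

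The study sorted viable F4/80+ cells from peritoneal lavage and sequenced them with the 10x Genomics 3' V3 kit. There were 4 groups of 1 sample each, from mice 24 weeks old: Apoe-/- mice on a high-fat diet (HFD) for 20 weeks and then given 3 mg of anti-CVI-mAb, a monoclonal antibody against collagen VI, into the peritoneum; Apoe-/- mice on the same diet given saline; Apoe-/- mice on normal diet; and C57BL/6 mice on normal diet. Both control groups on normal diet received saline as well, and the Apoe-/- mice had a C57BL/6 background and, where fed HFD, were male. Both HFD groups had been moved to normal diet before the injection, and how many mice each library pools is not stated. The matrix numbers its 4 libraries by barcode suffix without a group, so no group was compared with another, a library is no replicate, and there is no test: intervals are 95% exact ones that cover counting error only.

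Folate receptor beta, the product of Folr2, is a protein anchored in the outer membrane that binds folate and marks subsets of tissue-resident macrophages. In the mouse peritoneum, large macrophages depend on the transcription factor Gata6 and keep up their number locally, while small macrophages come from blood monocytes and carry class II molecules and Ccr2. Retnla, Mrc1 and Chil3 belong to the response to interleukin 4 and interleukin 13, which act through Stat6, and Maf is a transcription factor of resident macrophages. Lyve1, Folr2, Mrc1, Cbr2 and F13a1 occur together in macrophages that lie along vessels and in serous cavities.

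Retnla, Mrc1 and Cbr2, with Maf, were at least 2-fold higher in members than in Folr2-zero cells of all 3 libraries, so promoters of the first 3 and of Folr2 are shown before their levels (RefSeq, GRCm38.p6; 7 of 8 genes looked up had an entry). Each runs 5′ to 3′ over 300 bases around the RefSeq start of the transcript. Folr2 had 2 entries, and the one at chr7:101845282-101845581 is not printed. Capitals mark matches to 3 motifs searched on both strands: the Stat6 palindrome, whose half-sites stand 4 bases apart and whose matches are spelled out after the sequences; TGCTGAC, a Maf half-site; and TTGCNNAA, bound by C/EBP factors.
Retnla promoter, chr16:48842359-48842658, plus strand: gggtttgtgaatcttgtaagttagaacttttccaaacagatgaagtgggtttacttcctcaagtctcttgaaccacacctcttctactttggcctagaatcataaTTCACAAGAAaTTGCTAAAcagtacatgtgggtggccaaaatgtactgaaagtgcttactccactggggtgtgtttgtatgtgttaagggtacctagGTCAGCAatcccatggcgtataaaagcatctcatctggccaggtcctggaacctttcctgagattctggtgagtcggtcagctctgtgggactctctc
Cbr2 promoter, chr11:120731972-120732271, minus strand: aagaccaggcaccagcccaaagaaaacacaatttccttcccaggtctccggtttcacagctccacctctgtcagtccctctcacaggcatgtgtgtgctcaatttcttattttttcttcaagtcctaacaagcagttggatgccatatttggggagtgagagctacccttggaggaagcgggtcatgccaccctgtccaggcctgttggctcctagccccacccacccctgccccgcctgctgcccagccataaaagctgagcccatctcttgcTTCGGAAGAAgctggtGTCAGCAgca
Mrc1 promoter, chr2:14229164-14229463, plus strand: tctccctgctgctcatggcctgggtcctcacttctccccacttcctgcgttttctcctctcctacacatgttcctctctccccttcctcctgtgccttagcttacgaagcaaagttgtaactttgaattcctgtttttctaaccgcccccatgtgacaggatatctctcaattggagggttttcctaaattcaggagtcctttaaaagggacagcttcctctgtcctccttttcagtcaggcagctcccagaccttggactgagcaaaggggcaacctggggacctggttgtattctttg
Folr2 promoter, chr7:101857141-101857440, minus strand: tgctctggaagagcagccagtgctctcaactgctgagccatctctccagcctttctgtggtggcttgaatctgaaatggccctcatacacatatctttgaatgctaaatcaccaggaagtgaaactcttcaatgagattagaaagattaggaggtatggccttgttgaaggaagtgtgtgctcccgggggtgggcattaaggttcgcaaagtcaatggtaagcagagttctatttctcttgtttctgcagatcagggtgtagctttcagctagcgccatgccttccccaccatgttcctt
In the Retnla promoter the Stat6 palindrome TTCACAAGAA began at position -145 from the start and the C/EBP motif TTGCTAAA at -134, without overlap. A Maf half-site lay at -48, on the minus strand (GTCAGCA as printed). Cbr2 had the palindrome TTCGGAAGAA at position 24 past its start and a Maf half-site, again on the minus strand, at 40. No motif was found in the windows of Mrc1, Folr2, Clec4a2, Ccl6 and F13a1. Of 32851 mouse promoters of this length, 6.95% held the Stat6 palindrome, 4.67% the Maf half-site and 10.8% the C/EBP motif, so a match describes letters and not a bound site.

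Members made up 14.6% (interval 13.6 to 15.6) of the cells with at least 2 Adgre1 UMIs in library 2, 2.76% (2.30 to 3.27) in library 3 and 2.07% (1.71 to 2.4997) in library 4. The share in library 2 thus lay above the intervals of both other libraries. Just inside the Folr2 limit, 240, 37 and 40 of the members held exactly 2 Folr2 UMIs, against 550, 127 and 112 cells just outside it with 1, and the highest held 30, 24 and 16. Before the other limits, 1045, 342 and 321 cells had at least 2 Folr2 UMIs. The Lyve1 limit was broken by 143, 79 and 102 of these, and the Timd4 limit by 150, 142 and 147.

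Libraries 1 to 4 held 6254, 6765, 6454 and 7338 barcodes with 40321459, 74067998, 73429015 and 78083803 UMIs, and pairs of libraries shared 6 to 12 barcodes, of which at most 1 per pair was a member. Members had median totals of 13164, 13814 and 13838.5 UMIs in libraries 2, 3 and 4, and Folr2-zero cells 12325, 13908 and 12819.5. Depth thus differed little between the sets being compared. Macrophage genes were high in members: Csf1r, the receptor for the macrophage growth factor, stood at 641, 531 and 538 CPM (UMIs per 1000000 of the summed cells), against 566, 410.0 and 443 CPM in Folr2-zero cells. Lists of other cells' markers were summed without the genes of the gate. The gate bars Cd79a and Cd3 RNA from members and not from Folr2-zero cells, so lower B and T cell sums in members follow from it. Summed levels in members and then Folr2-zero cells ranged over libraries from 0 to 1.14 against 4.10 to 7.99 CPM for 9 T and NK cell genes, of which 7 to 9 were at 0 in members, from 1.55 to 9.70 against 8.88 to 33.0 CPM for 8 mast cell genes, of which 3 were at 0, and from 51.1 to 60.9 against 135 to 326 CPM for 10 B cell genes, of which 1 to 5 were at 0. The B cell genes summed to 60.9, 51.8 and 51.1 CPM in members, against 55.7, 44.9 and 45.4 CPM in the Folr2-zero cells that meet the gate's other limits, so members were not lower there. Eosinophil genes summed to at most 0.65 CPM in members and mesothelial and stromal genes to at most 0.65 CPM, and neutrophil genes to 28.1, 19.9 and 21.3 CPM in members, against 38.5, 58.3 and 15.6 CPM in Folr2-zero cells.

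Members held far more Retnla RNA than Folr2-zero cells and, at lower levels, more Mrc1, Cbr2 and Maf. A gene passed the size rule with at least 20 CPM in the higher set and at least a 2-fold ratio with 1 sign in all 3 libraries. Of 4928 genes tested, 4 passed as higher (0.0812%) and 10 as lower (0.203%). The rule used this contrast, so the counts only describe it. The median log2 ratio of all genes tested was 0.08, 0.12 and 0.14. The share of all genes with 1 sign in all 3 libraries was not counted, so the sign counts of gene lists below have no such background.

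Retnla (ENSMUSG00000061100, GRCm38 chr16:48842551-48844461) encodes the secreted protein RELMα. It stood at 2665, 7350.3 and 4963 CPM in members of libraries 2, 3 and 4, against 288, 418 and 399 CPM in Folr2-zero cells. The log2 ratios were 3.21 (interval 3.17 to 3.24), 4.14 (4.11 to 4.17) and 3.64 (3.60 to 3.67), so members were higher in each library and the members of library 3 highest. Mrc1 (chr2:14229392-14332057) encodes the mannose receptor CD206, which takes up glycoproteins. Its level was 106, 126 and 136 CPM in members, against 41.1, 8.56 and 12.2 CPM in Folr2-zero cells. Member levels were alike across libraries, whereas the Folr2-zero cells of library 2 held several times more Mrc1 than those of the other libraries, and the log2 ratios were 1.37, 3.89 and 3.48. Cbr2 (chr11:120729489-120732114), a carbonyl reductase of mitochondria, had 35.1, 29.0 and 33.0 CPM in members, against 9.25, 5.62 and 3.95 CPM in Folr2-zero cells, with log2 ratios of 1.92, 2.38 and 3.07. Maf (chr8:115682942-115707794) had 217, 283 and 272 CPM in members, against 97.5, 90.5 and 95.3 CPM in Folr2-zero cells, with log2 ratios of 1.15, 1.65 and 1.52. For all 4 genes, the lowest member level lay above the highest Folr2-zero level. The 4 were picked by size on this contrast, and the share of all genes with such a gap was not counted. The gap therefore adds no support.

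**Figure D1:**
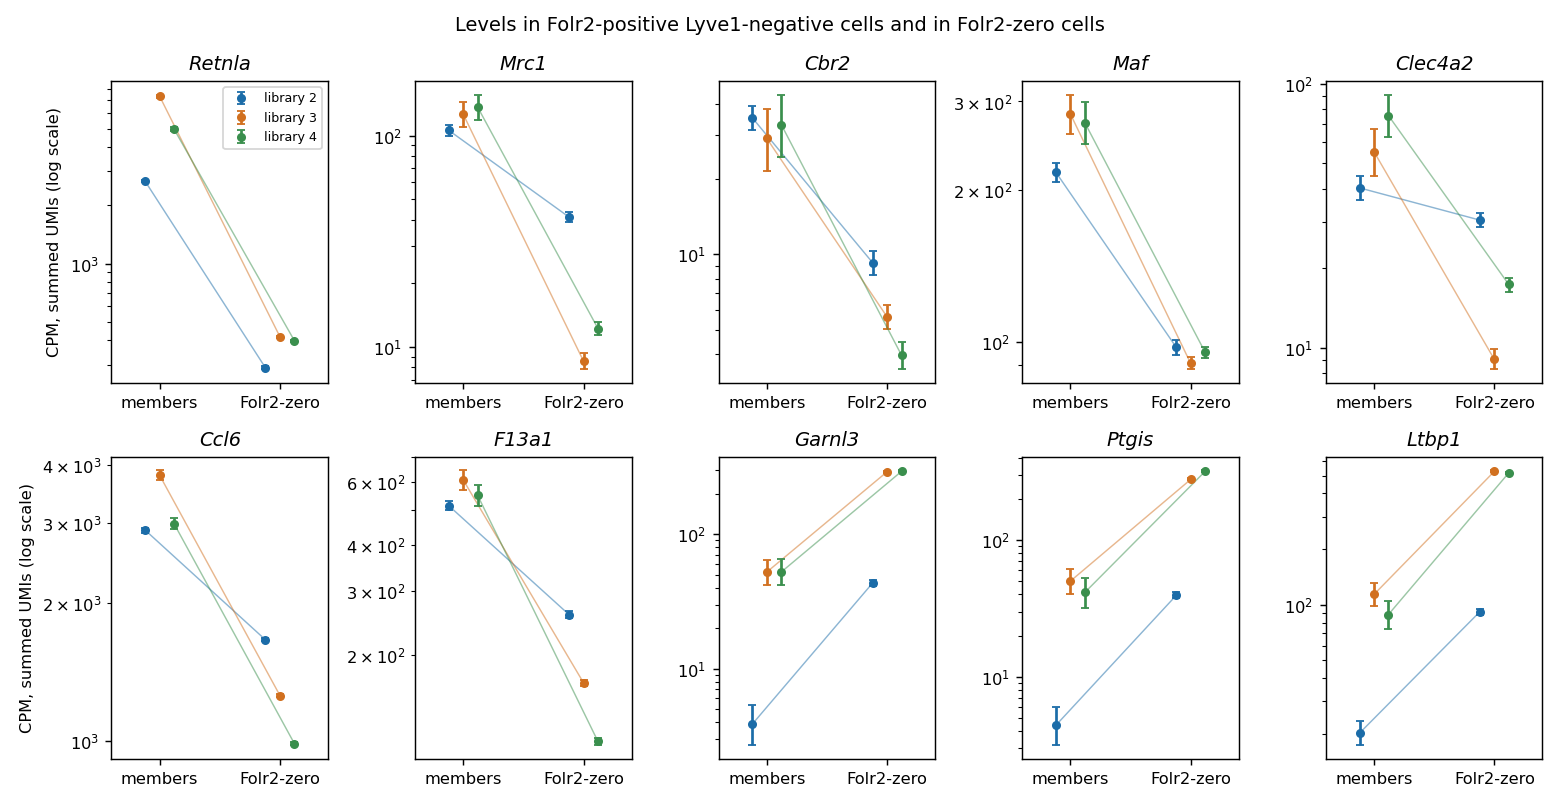
CPM of summed UMIs on log axes for 10 genes, with members left and Folr2-zero cells right in each panel; points are libraries 2, 3 and 4, bars are 95% exact Poisson intervals, and lines join the sets of a library. Retnla stood at 2665 to 7350.3 CPM in members and 288 to 418 CPM in Folr2-zero cells, while Garnl3, Ptgis and Ltbp1 ran the other way.

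The remaining proposed markers, Ccl6, F13a1 and Clec4a2, were above Folr2-zero cells in each library but by less than 2-fold in library 2. Ccl6, a chemokine of mouse macrophages, had 2887, 3804 and 2982 CPM in members, against 1663, 1258 and 988 CPM in Folr2-zero cells, with log2 ratios of 0.80, 1.60 and 1.59. F13a1, the catalytic subunit of coagulation factor XIII, had 515, 606 and 549.6 CPM in members, against 258, 167 and 115 CPM in Folr2-zero cells. Its log2 ratio in library 2 was 0.999, just short of the limit, and 1.86 and 2.26 in libraries 3 and 4. Clec4a2, a C-type lectin receptor, had 40.3, 55.2 and 75.7 CPM in members, against 30.4, 9.03 and 17.3 CPM in Folr2-zero cells, with log2 ratios of 0.41, 2.62 and 2.13. Reads of Clec4a2 may be shared with its near relatives Clec4a1 and Clec4a3. Folr2 was fixed by the rule and gives no support to the label. Retnla was past 2-fold in all 3 libraries, and Ccl6, F13a1 and Clec4a2 in libraries 3 and 4 only. The markers were chosen with earlier results of these data known, so these values only describe the contrast.

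Single cells differed widely in Retnla. After each cell was thinned to 3000 UMIs, which left out 2, 1 and 0 members, a Retnla UMI was present in 44.2% (interval 40.3 to 48.0), 78.4% (70.2 to 85.3) and 69.4% (59.8 to 77.9) of members. The same share was 16.0%, 16.6% and 17.5% in Folr2-zero cells. B cell-like cells, which should lack Retnla and here had at least 2 Cd79a UMIs and no Adgre1, showed 8.86%, 11.4% and 9.69% at unthinned medians of 7071.5, 4853.5 and 6409 UMIs. This background can hold free RNA and doublets, which were not told apart. The highest B cell-like cell of library 2 held 47 Retnla UMIs of 3000. The median member held 0, 6 and 3.5 Retnla UMIs of 3000 and the highest 211, 164 and 154. Ccl6 was detected in nearly all members by contrast, with a UMI in 98.6%, 99.2% and 99.1% of them. The share was 96.1%, 91.6% and 87.5% in Folr2-zero cells, and 14.6%, 9.47% and 12.4% in B cell-like cells. Its counts still varied between members. Their lower and upper quartiles were 4 and 11, 5 and 16, and 4 and 13 Ccl6 UMIs of 3000, and the highest held 48, 40 and 50.

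Mrc1, F13a1 and Maf were found in a larger share of members than of Folr2-zero cells in every library. Mrc1 was present in 25.8%, 27.2% and 25.9% of members at 3000 UMIs, against 11.5%, 2.53% and 3.39% of Folr2-zero cells and 1.45%, 1.52% and 0.775% of B cell-like cells. F13a1 was present in 68.6%, 72.0% and 65.7% of members, against 45.6%, 26.6% and 21.2% of Folr2-zero cells. Maf was present in 42.3%, 45.6% and 53.7% of members, against 24.5%, 21.7% and 22.8% of Folr2-zero cells. The shares of members were similar across libraries for these 3 genes. Before thinning, a Retnla UMI was present in 61.7% and 81.5% of members of libraries 2 and 4.

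**Figure D2:**
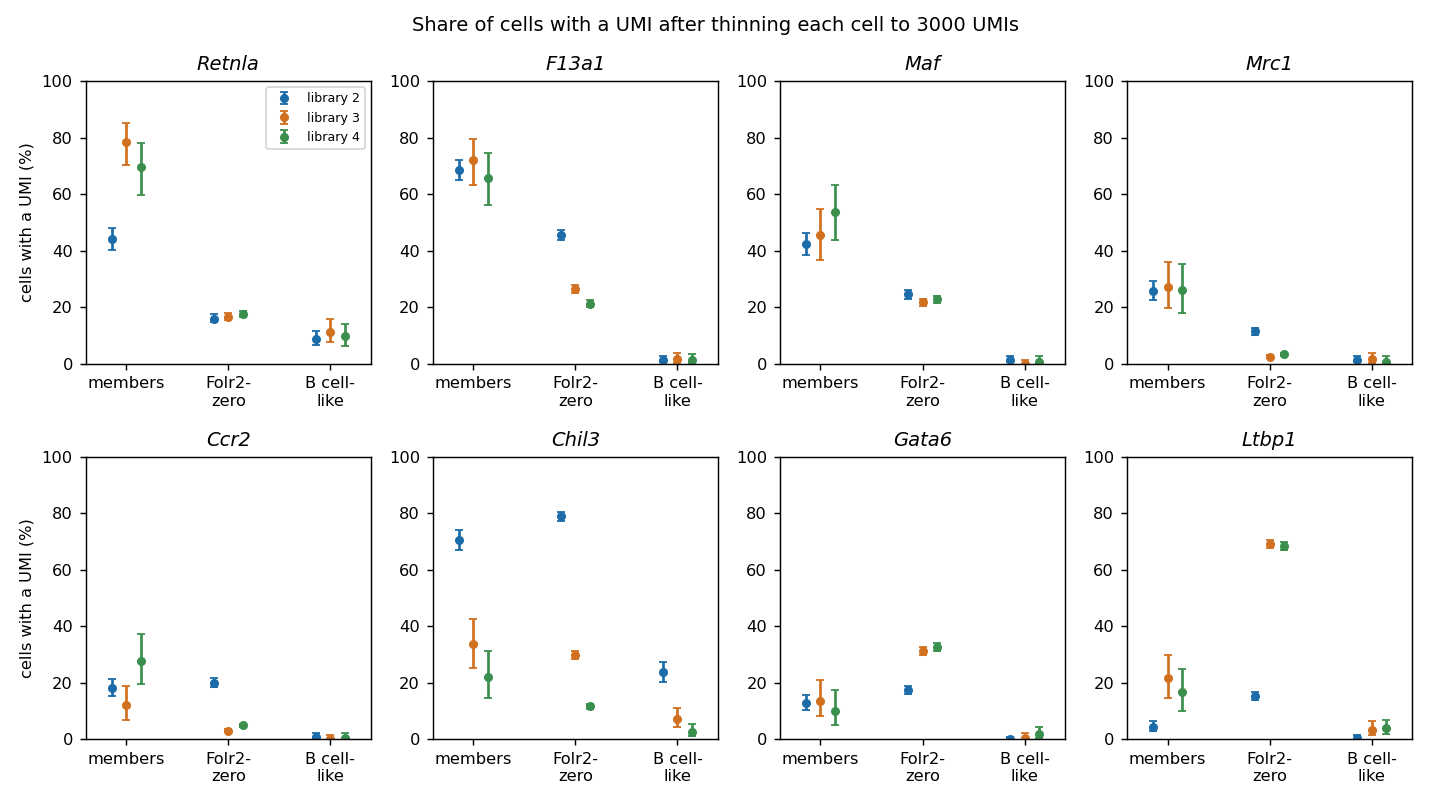
Share of cells with a UMI (%) after thinning to 3000 UMIs, for members, Folr2-zero cells and B cell-like cells; points are libraries 2, 3 and 4 and bars 95% Clopper-Pearson intervals. Retnla was detected in 44.2 to 78.4% of members and 16.0 to 17.5% of Folr2-zero cells, and Ltbp1 in 4.55 to 21.6% of members and 15.3 to 69.1% of Folr2-zero cells.

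Genes of resident scavenger macrophages stood higher in members. Of 18 symbols on this list 12 were tested, 10 had a higher sign in all 3 libraries and 3 passed the rule (Cbr2, Mrc1 and Maf). Over all genes tested 0.0812% passed as higher, and the list was chosen with earlier results of these data known. Its median log2 ratios were 1.08, 0.78 and 0.68. Stab1, a scavenger receptor, had 47.8, 39.8 and 31.7 CPM in members, against 13.7, 22.0 and 18.4 CPM in Folr2-zero cells. Fcna, a lectin that starts the complement cascade, had 787, 1918 and 1326 CPM in members, against 299.5, 672 and 734 CPM in Folr2-zero cells. Fcna missed the 2-fold limit in library 4 only, with log2 ratios of 1.39, 1.51 and 0.85. When Folr2-zero cells also had to meet the other limits of the gate (matched limits, which left 2186, 1805 and 1938 of them), Fcna passed with 1.61, 1.64 and 1.10. Under matched limits 6 of 4882 genes passed as higher (0.123%) and 2 as lower (0.041%). Pf4, platelet factor 4, was higher in members of library 2 only (log2 ratios 1.23, -0.08 and -0.72).

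Other genes of alternative activation did not pass as Retnla and Mrc1 did. Of the 9 tested genes on that list, those 2 passed, beside 0.0812% of all genes tested, and the list medians were 0.27, 0.30 and 0.48. Both are among the 4 genes picked by size on this contrast. Chil3, a chitinase-like protein, had 1722, 593 and 201 CPM in members, against 3076, 585 and 139 CPM in Folr2-zero cells. It was lower in members of library 2 and higher in those of library 4 (log2 ratios -0.84, 0.02 and 0.54), and under matched limits it was lower in each (-1.08, -0.69 and -0.35). Arg1, which breaks down arginine, had log2 ratios of 0.27, 0.42 and 0.23. Among 17 tested transcription factors Maf, another of those 4, passed, beside the same 0.0812%.

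Class II antigen presentation genes and Ccr2 set library 2 apart. In libraries 3 and 4 together, 43 of 5032 genes passed as higher (0.855%) and 35 as lower (0.696%), while library 2 taken alone gave 10 of 5511 higher (0.181%) and 25 lower (0.454%). Library 3 alone gave 83 of 5345 higher (1.55%) and 58 lower (1.09%), and library 4 alone 71 of 5272 higher (1.35%) and 59 lower (1.12%). Of 7 class II genes tested, 0, 4 and 4 were past 2-fold upward in libraries 2, 3 and 4, and 0, 3 and 0 under matched limits. Cd74, the invariant chain, had 5795, 3672 and 6712 CPM in members, against 7405, 1414 and 2745 CPM in Folr2-zero cells. Its log2 ratios were -0.35, 1.38 and 1.29, and -0.50, 0.96 and 0.74 under matched limits. H2-Aa, a class II alpha chain, had log2 ratios of -0.26, 1.49 and 1.46. Member levels thus lay between 3672 and 6712 CPM for Cd74, and the Folr2-zero cells of library 2 lay above all of them.

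The chemokine receptor Ccr2, which monocytes use to enter tissue, followed the same order. Ccr2 had 112, 73.4 and 139.7 CPM in members, against 124, 18.0 and 32.2 CPM in Folr2-zero cells, with log2 ratios of -0.15, 2.03 and 2.12. Axl, a receptor for the uptake of dying cells, had 52.2, 48.9 and 29.7 CPM in members, against 47.7, 8.36 and 7.21 CPM in Folr2-zero cells, with log2 ratios of 0.13, 2.56 and 2.06. Gas6, the ligand of Axl, was below the 20 CPM limit and was picked after its values were seen. It had 3.43, 12.5 and 5.82 CPM in members, against 0.598, 0.703 and 0.738 CPM in Folr2-zero cells, and was higher in members of each library. Trem2, a lipid-sensing receptor, had log2 ratios of 0.85, 1.20 and 0.99. Classical monocyte genes gave 0 of 5 past the rule, with medians of 0.08, 0.88 and 0.94.

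**Figure D3:**
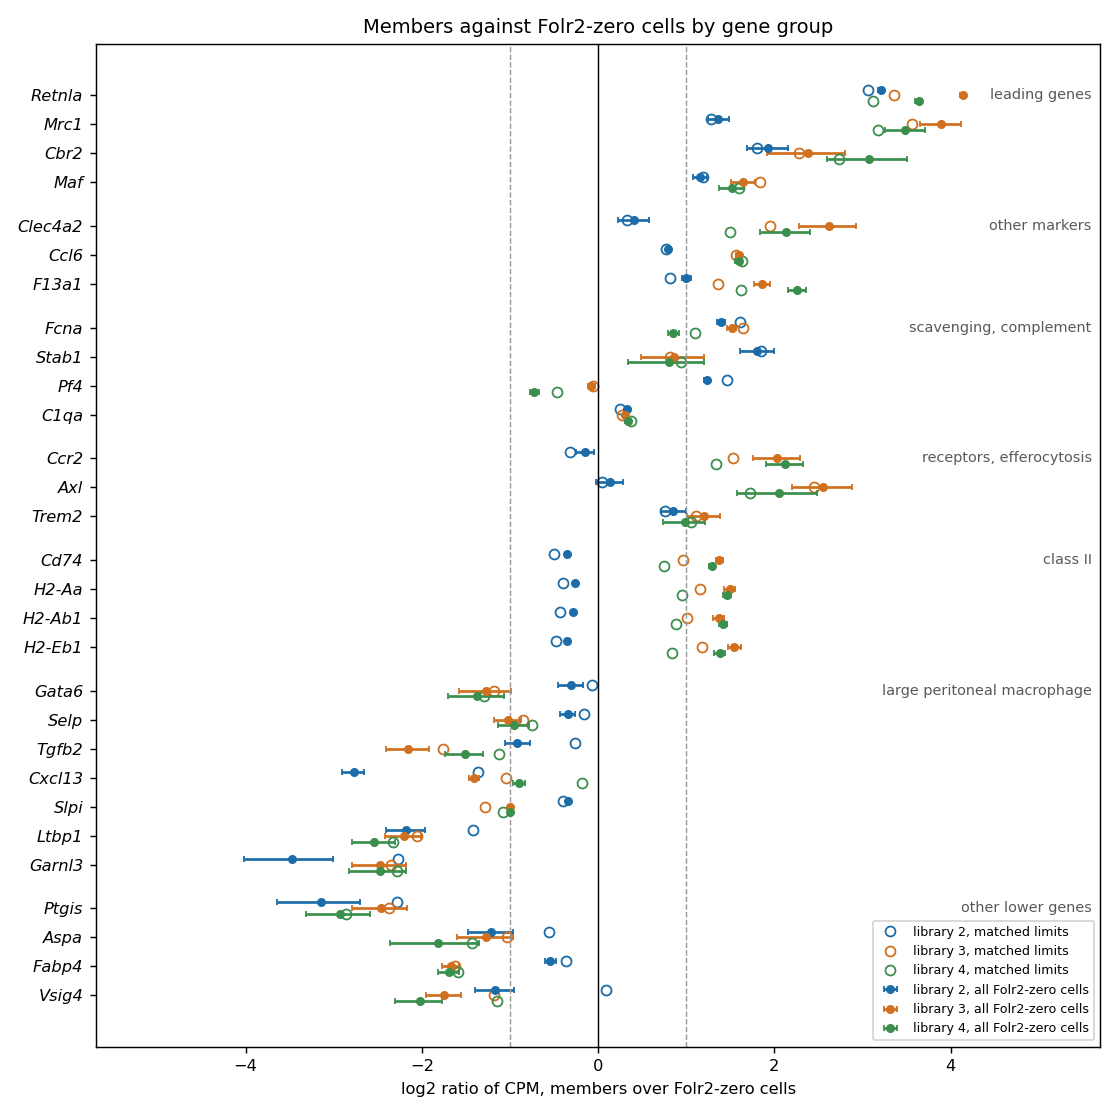
Log2 ratios of CPM, members over Folr2-zero cells, by gene group, with a colour per library; filled points with 95% intervals use all Folr2-zero cells, open circles the cells under matched limits, and dashed lines mark 2-fold. The 4 class II genes drawn and Ccr2 lay left of 0 in library 2 and right of 0 in libraries 3 and 4, whereas Retnla, Mrc1, Cbr2 and Maf lay right of the 2-fold line in all 3.

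Genes of large peritoneal macrophages were lower in members, most so in libraries 3 and 4. Of 20 symbols 19 were tested, 16 had a lower sign in all 3 libraries, and Garnl3 and Ltbp1 passed the rule, beside 0.203% of all genes tested. The list medians were -0.31, -0.82 and -0.86. Under matched limits, which also hold Timd4 down in Folr2-zero cells, they were -0.15, -0.71 and -0.66, and of 18 genes tested Ltbp1 passed as lower and Fcna as higher. Ltbp1, which stores latent TGF-β in the matrix, had 20.2, 114 and 88.6 CPM in members, against 91.7, 527 and 517 CPM in Folr2-zero cells, with log2 ratios of -2.18, -2.21 and -2.54. Garnl3, named for a GTPase-activating domain, had 3.87, 52.3 and 52.4 CPM in members, against 43.5, 292 and 294 CPM in Folr2-zero cells. Ptgis, prostacyclin synthase, was the gene of the eicosanoid list that passed, with 4.42, 50.1 and 41.4 CPM in members, against 39.5, 278 and 318 CPM in Folr2-zero cells. The log2 ratios of Garnl3 were -3.47, -2.47 and -2.48 and those of Ptgis -3.14, -2.46 and -2.93. Under matched limits those of Ltbp1, Garnl3 and Ptgis lay between -2.87 and -1.42, so members were lower in each library either way, although Garnl3 then missed the 20 CPM minimum in library 2.

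Gata6 itself stood at almost the same level in members of each library, 56.8, 55.8 and 54.3 CPM, against 70.5, 135 and 141 CPM in Folr2-zero cells. The log2 ratios were -0.31, -1.27 and -1.37, so the spread came from the Folr2-zero side. A Gata6 UMI was present in 13.1%, 13.6% and 10.2% of members at 3000 UMIs, against 17.4%, 31.3% and 32.7% of Folr2-zero cells. Slpi, a protease inhibitor, had log2 ratios of -0.34, -0.997 and -0.996, and Tgfb2, a TGF-β, -0.92, -2.15 and -1.51. Cxcl13, the chemokine that draws B cells, had 59.8, 1290.3 and 1099 CPM in members, against 410.2, 3428 and 2047 CPM in Folr2-zero cells. Icam2, also on the list, had log2 ratios of 0.06, -0.20 and -0.02.

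Vsig4, the complement receptor CRIg, was the complement gene that passed as lower, beside 0.203% of all genes tested. The log2 ratios of Vsig4 were -1.17, -1.75 and -2.03. Under matched limits, where Timd4-rich cells leave the Folr2-zero set, its ratios were 0.09, -1.18 and -1.15, and those of Cald1, an actin-binding protein, 0.08, -1.16 and -0.87. The other lower genes were Aspa (-1.21, -1.27 and -1.81), Vmn2r26 (-4.71, -2.00 and -2.71) and the gene model C130026I21Rik. Under matched limits Aspa had -0.56, -1.03 and -1.44, and the 2 lower genes that then passed were Ltbp1 and Ptgis. The Timd4 limit was broken by 361, 1938 and 2476 Folr2-zero cells and the Cd79a limit by 167, 182 and 142. The immunoglobulin genes Igkc and Ighm passed as lower with medians of -3.31 and -2.84, and with all limits matched their log2 ratios were 0.25, -0.39 and -0.22, and -0.04, 0.21 and 0.63.

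Broad macrophage functions differed little. All 16 lysosomal genes were tested, 0 passed, 12 had a higher sign in all 3 libraries, and the medians were 0.15, 0.18 and 0.18, beside 0.08 to 0.14 over all genes. Of 13 complement genes 0 were higher, and C1qa, part of the first complement component, had log2 ratios of 0.32, 0.31 and 0.34. Of 19 genes of folate and one-carbon use only 4 reached the level to be tested, 0 passed, and the medians were 0.21, 0.04 and -0.04. Among 15 tested lipid genes 0 passed, although Fabp4, a fatty acid carrier, had log2 ratios of -0.54, -1.67 and -1.70 and Pltp, which transfers phospholipids, 0.43, 1.08 and 0.82. Iron and haem genes (0 of 10 past the rule), Fc receptors (0 of 9) and interferon genes (0 of 7) gave no call, and 0 of 5 inflammatory genes passed.

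Cells that met every other limit were also split by their number of Folr2 UMIs. Retnla in library 2 stood at 320, 597, 1072, 1662, 3122 and 4705 CPM in cells with 0, 1, 2, 3, 4 and at least 5 Folr2 UMIs. In the same order it stood at 719, 4188, 5579, 4405, 4966 and 10526 CPM in library 3 and at 570, 3204, 3393, 3597, 7917 and 6971 CPM in library 4. It was thus higher at each step in library 2, while libraries 3 and 4 had steps down. Cells just outside the limit, with 1 UMI, thus already stood well above those with 0 in each library. Mrc1, Cbr2, Maf, Ccl6 and F13a1 were also higher at 5 or more UMIs than at 0 in each library, and Ltbp1, Ptgis and Garnl3 lower. Bins held 14 to 2186 cells, and those with 4 UMIs in libraries 3 and 4 only 18 and 14.

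**Figure D4:**
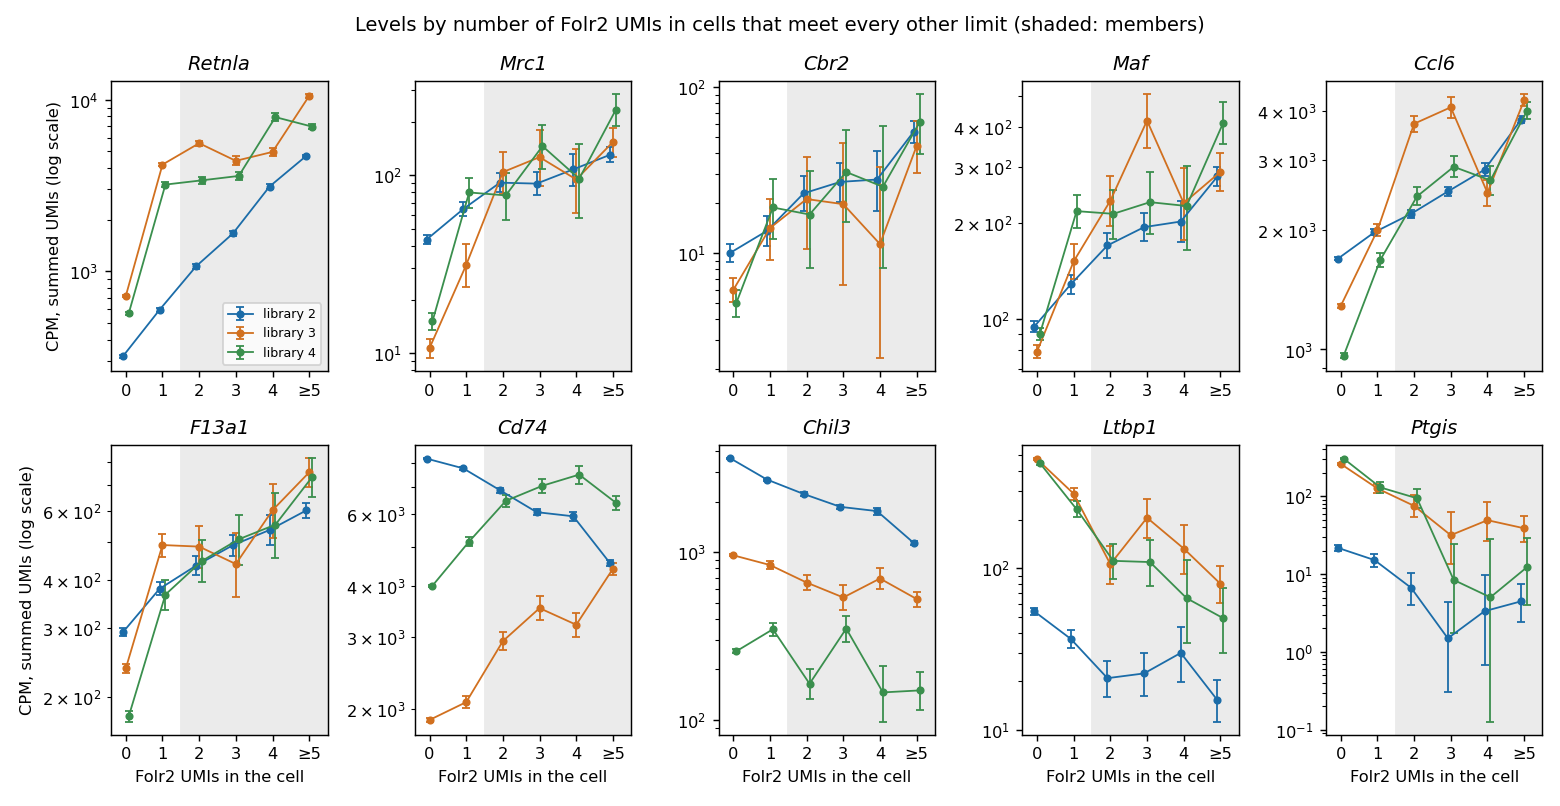
CPM of summed UMIs (log axes) by the number of Folr2 UMIs in the cell, for cells that meet all other limits; colours are libraries 2, 3 and 4, bars are 95% exact Poisson intervals and the shaded part holds the members. Retnla, Mrc1, Maf and F13a1 were higher at 5 or more Folr2 UMIs than at 0, while Cd74 ran down from 8201 to 4556 CPM in library 2 and was higher at 5 or more than at 0 in libraries 3 and 4.

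Cd74 differed in direction between libraries along this scale, and Chil3 did not. Cd74 stood at 8201 CPM at 0 Folr2 UMIs and 4556 CPM at 5 or more in library 2, at 1885 and 4412 CPM in library 3 and at 4012 and 6398 CPM in library 4. At 5 or more Folr2 UMIs the libraries therefore lay closer together than at 0. Chil3 stood at 3633 CPM at 0 UMIs and 1137 CPM at 5 or more in library 2, at 959 and 526 CPM in library 3 and at 256 and 149.9 CPM in library 4.

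Members rich in Retnla differed from members without it in Chil3. After thinning, the 173, 33 and 27 members with the most Retnla (at least 4, 29 and 16.5 UMIs in libraries 2, 3 and 4) were set against the 368, 38 and 33 with at most 0, 1 and 0. Chil3 had 753, 80.8 and 37.0 CPM in Retnla-rich members, against 2312, 1096 and 172 CPM in Retnla-poor members, with log2 ratios of -1.62, -3.68 and -2.03. Both genes belong to the alternative activation list, and here they ran in opposite directions in each library. Ccl6 had 3784, 5293 and 5839.5 CPM in Retnla-rich members, against 2413, 2518 and 1960 CPM in Retnla-poor members. Fcna was higher in Retnla-rich members too (log2 ratios 0.85, 0.41 and 1.16), as was F13a1 (0.29, 0.72 and 0.75). Intervals for Chil3 ran from -1.77 to -1.46, from -5.01 to -2.74 and from -4.63 to -0.42.

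Members with a Gata6 UMI after thinning, 86, 17 and 11 cells, had less Cd74 than those without: 4341, 3118 and 4333 CPM, against 6322, 3839.5 and 6893 CPM. Chil3 was lower in them as well (log2 ratios -0.84, -0.94 and -2.29). In library 4 this rests on 1 Chil3 UMI in the 11 cells, with an interval from -8.19 to -0.33. Slpi had no common direction (0.50, 0.71 and -0.38). Retnla was lower in each library (-0.10, -0.04 and -1.26). Its interval ran from -1.61 to -0.95 in library 4 and spanned both signs in libraries 2 and 3.

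Members of the 3 libraries were alike in most genes tested and differed in a few. Of 5722 genes, 10, 7 and 2 were at least 2-fold above both other libraries in members of libraries 2, 3 and 4 (0.175%, 0.122% and 0.035%), and 18, 8 and 22 below (0.315%, 0.1398% and 0.384%). Apoe, the apolipoprotein that the mutant mice lack, had 825, 895 and 33676 CPM in members, and 870, 727 and 29835 CPM in Folr2-zero cells, so its levels parted by library and little by cell set. In library 1, outside these comparisons, Apoe stood at 29.0 CPM in cells that met the same limits and 19.6 CPM in Folr2-zero cells. No label gives the genotype of a library, so Apoe could not be checked against one, and which genotype each library holds was not tested. Marco, a scavenger receptor, had 70.9, 443 and 349.8 CPM in members, against 151, 320 and 268 CPM in Folr2-zero cells. Its level in members was lowest in library 2 and lay above Folr2-zero cells in the other libraries. Cd163, a haemoglobin receptor, had 11.9, 33.0 and 12.9 CPM in members, against 6.12, 4.50 and 4.11 CPM in Folr2-zero cells.

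Compared with Ccr2-positive cells (at least 2 Ccr2 UMIs, no Folr2, at most 1 Cd209a; 656, 137 and 272 cells), members held more Marco, Fcna and Retnla RNA. Of 5047 genes tested, 16 passed as higher (0.317%) and 14 as lower (0.277%). Marco had 70.9, 443 and 349.8 CPM in members, against 9.39, 42.8 and 42.2 CPM in Ccr2-positive cells, with log2 ratios of 2.91, 3.36 and 3.05. Fcna (1.86, 2.10 and 1.81), Retnla (1.81, 1.46 and 1.84), Cxcl13 (2.26, 1.03 and 2.39), Serpinb6a, a protease inhibitor (1.98, 2.38 and 2.16), and Mrc1 (1.00, 1.79 and 1.87) were also higher. The lower genes named by rule, Pclaf, H1f5, Hist1h2ap, Stmn1, H2ac8 and Cenpa, serve DNA replication, histones and cell division, and the Ccr2-positive cells had no limit on such genes. Cd74 had log2 ratios of -0.80, -0.99 and -0.48, under the 2-fold limit.

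With matched limits on the Ccr2-positive cells (572, 91 and 205), 15 of 4973 genes were higher (0.302%) and 8 lower (0.161%) in members. Among the 8 were Chil3, with log2 ratios of -1.20, -1.86 and -2.36, and Plac8, a gene of monocytes, with -1.03, -2.21 and -2.10. Retnla and Mrc1 were not among the 15, whereas Marco, Fcna, Vsig4, Pf4, Stab1, Maf and Cbr2 were. Vsig4, low against all Folr2-zero cells, had 21.3, 120.0 and 76.3 CPM in members, against 4.85, 5.04 and 13.03 CPM in these matched Ccr2-positive cells. Vsig4 in members thus lay below all Folr2-zero cells and above this subset of them. Clec4a2 and F13a1, 2 of the proposed markers, differed from Ccr2-positive cells by less than 2-fold (Clec4a2 -0.23, -0.51 and -0.20; F13a1 0.56, 0.42 and 0.55).

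Against Cd209a-positive cells without Folr2, a small set of 7, 64 and 74 cells, 12 of 5086 genes passed as higher in members (0.236%) and 34 as lower (0.669%). Retnla had 2665, 7350.3 and 4963 CPM in members, against 29.3, 152 and 348 CPM in Cd209a-positive cells. F13a1 (log2 ratios 2.70, 2.70 and 3.01) and Ccl6 (1.64, 1.89 and 1.62) were higher as well, and so were Cbr2, Chil3 and Lyz1, a lysozyme. Klrd1, a lectin receptor of NK and dendritic cells, stood at no more than 0.569 CPM in members, against 117, 54.4 and 47.1 CPM in Cd209a-positive cells. Igkc and Ighm, which B cells express, were lower in members too, and in library 2 the 7 cells had a median of 25095 UMIs, so doublets could not be told apart there. This set had no Lyve1, Timd4, Cd79a, Cd3 or cell cycle limit, and only 3, 13 and 23 of its cells met those limits. Against these few cells Retnla (log2 ratios 8.35, 5.58 and 2.03), F13a1, Ccl6, Cbr2 and Lyz1 still passed as higher, and Chil3 did not. H2-Eb1 then passed as lower (-2.91, -1.48 and -1.15).

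Folr2-positive Lyve1-positive cells (98, 43 and 39 cells) meet all limits but that on Lyve1, which makes them the nearest set by definition. Of 5068 genes 0 passed in either direction (0%). Folr2 itself, used by the rule, was lower in members (log2 ratios -0.71, -0.48 and -0.47), and Cbr2 had 35.1, 29.0 and 33.0 CPM in members, against 87.5, 74.1 and 39.4 CPM in Lyve1-positive cells. Mrc1 (-0.68, -0.90 and -0.35) and Maf (-0.87, -0.61 and -0.37) were also lower in members of each library. In library 4 the interval of Mrc1 ran from -0.70 to 0.01. F13a1 (-0.38, -0.49 and -0.39) and Ccl6 (-0.64, -0.15 and -0.19) were lower in each library as well. Retnla (-0.87, 0.13 and -0.25) and Clec4a2 (-0.001, 1.41 and 0.43) had no common direction. Class II genes did not pass either. Cd74 (0.56, 0.31 and 0.51) and H2-Aa (0.55, 0.36 and 0.49) were higher in members of each library. So were H2-Ab1 (0.64, 0.30 and 0.47) and H2-Eb1 (0.66, 0.50 and 0.58). H2-DMa (0.56, -0.09 and 0.40) and H2-DMb1 (0.47, -0.01 and 0.45) had mixed signs. The costimulator Cd86 had log2 ratios of -0.06, -0.02 and -0.65. Ccr2 had log2 ratios of 0.63, 0.69 and 1.18.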

How the data were processed

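F4/80+ peritoneal cells of 4 mouse groups were profiled by 10x single-cell RNA-seq. The deposited values are raw UMI counts per gene and barcode in 1 matrix (31253 genes, 26811 barcodes). The file headers name Cell Ranger 5.0.1; mm10, CASAVA 1.8 and Seurat are named in the submitters' processing notes. Barcode suffixes are not tied to samples, so values are given per library and no p-value was made.

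Counts were summed over cells of a set within a library, scaled to CPM, and compared as log2 ratios with a prior count of 0.5. Genes that passed needed 20 CPM in the higher set and a 2-fold ratio of 1 sign in all 3 libraries. Named genes were the 12 largest and smallest ratios past this rule (6 against other sets), the markers, and members of 31 lists (386 symbols, all in the matrix). Members and lists were chosen with earlier results of these data known. Ratio intervals are exact binomial ones at 95%. They were tested on counts simulated with counting error only, which cannot show how they cover spread between cells. UMI totals of the libraries used ran from 73429015 to 78083803. Doublets were not called. An alternative left out cells above 2 times the median UMIs. Promoters came from RefSeq (GRCm38.p6) and gene positions from GENCODE on GRCm38. Python 3.11.15, numpy 2.4.6, scipy 1.17.1, pandas 2.3.3 and matplotlib 3.10.9 were used. Alternatives covered matched limits, thinning, the Folr2, Adgre1 and mitochondrial limits, the CPM minimum, scaling and leaving out a library.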

Additional observations from a re-analysis of the deposited data

Results flagged for a closer look

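Library 1 lay outside the gate on barcode suffix and entered no comparison above. It held 294 cells that met the same limits, 14.3% of its 2055 cells with at least 2 Adgre1 UMIs, and these carried 31282 UMIs of Retnla, a signal in data the comparisons did not use. Retnla stood at 11493 CPM in them, against 4735 CPM in the 675 Folr2-zero cells of library 1, a log2 ratio of 1.28 that was 0.48 under matched limits. Cbr2 (2.09), Maf (1.66), F13a1 (1.42), Mrc1 (1.17) and Ccl6 (1.11) were past 2-fold upward, and Ltbp1 (-2.20), Garnl3 (-2.16) and Ptgis (-2.34) downward, while Clec4a2 was at 0.39. Under matched limits Cbr2 (1.802) and Maf (1.26) remained past 2-fold upward and F13a1 (0.84), Mrc1 (0.67) and Ccl6 (0.56) did not, while Ltbp1 (-2.56), Garnl3 (-2.07) and Ptgis (-2.22) stayed past it downward. Library 1 was shallower, with a median of 9193 UMIs in these cells and 7528 UMIs in its Folr2-zero cells. The part of depth in these values was not tested.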

How the results depend on the processing

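No paired analysis was possible because no barcode suffix is tied to a sample and each group has 1 sample. Retnla and Mrc1 passed under all 19 alternatives run for named genes, Cbr2, Maf, Ltbp1 and Ptgis under 18, Garnl3 under 17 and Vsig4 and Cald1 under 12. Part of each tally was fixed in advance. A gene past the rule in all 3 libraries must also pass without 1 library, with a minimum of 5 CPM and with no minimum. Against Folr2-zero cells the 4 higher genes became 17 with cells thinned to 3000 UMIs before the gate, 11 with a minimum of 5 CPM, 60 with no minimum, 7 with no limit on Lyve1, and 6 to 43 when 1 library was left out, the most without library 2. The 10 lower genes became 2 with matched limits, 5 with thinning before the gate, 42 at 5 CPM, 0 at 100 CPM, 55 with no minimum, and 11 to 35 without 1 library. Genes on the lists went to 17 higher and 13 lower without library 2, beside 4 and 6, and to 2 lower with matched limits (both chosen after seeing the data). The member share was 9.29%, 1.95% and 1.31% in libraries 2, 3 and 4 with at least 3 Folr2 UMIs, 26.7%, 5.53% and 4.23% with at least 1, and 5.17%, 1.18% and 0.965% with thinning before the gate. Against Cd209a-positive cells, counts were 20 higher and 164 lower at 5 CPM, 31 and 71 with matched limits (added after seeing the data), and 23 to 33 and 60 to 83 without 1 library. Against Ccr2-positive cells the 14 lower genes became 83 at 5 CPM, 8 with matched limits and 16 to 69 without 1 library. Against Lyve1-positive cells 2 genes were higher and 5 lower at 5 CPM, with 0 to 1 and 4 to 5 without 1 library. The share of members of library 2 with a Retnla UMI was 61.7% unthinned and 50.1% at 5000 UMIs, and 81.5% unthinned in library 4. The median log2 ratio reversed for Cald1 with thinning before the gate (0.00946) and for Ighm with matched limits (0.21). Beyond what the added limits and smaller sets do by construction, the cause was not tested. Libraries 3 and 4 held 126 and 108 members, so rare genes there rest on few UMIs.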

Other observations

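Several genes marked a library in members and in Folr2-zero cells alike, outside the comparisons above. Fkbp5, Zbtb16 and Ttc39c were highest in library 3: Fkbp5, known as a target of the glucocorticoid receptor, stood at 40.9, 133 and 9.70 CPM in members of libraries 2, 3 and 4, and at 55.7, 107 and 10.4 CPM in Folr2-zero cells. Zbtb16 stood at 9.62, 33.0 and 7.11 CPM in members and 12.4, 32.4 and 13.02 CPM in Folr2-zero cells. Oasl2, an antiviral gene that interferon induces, was lowest in library 4, with 44.0, 41.5 and 14.2 CPM in members and 45.1, 31.6 and 13.5 CPM in Folr2-zero cells, and Oas2 and Oas3 had the same order. Lcn2, lipocalin 2, differed between the sets instead: it was highest in library 3 among members (3.87, 23.9 and 5.82 CPM) and in library 4 among Folr2-zero cells (4.95, 10.7 and 22.3 CPM).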
